A study of Mus musculus with 19 samples.

Results

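The 10 genes described here encode the tumor suppressor p53, its inhibitor Mdm2, a group of p53 targets, and members of the BCL2 family that decide between survival and death of a cell: *Trp53*, *Mdm2*, *Ccng1*, *Phlda3*, *Sesn2*, *Trp53inp1*, *Bbc3*, *Bax*, *Bcl2l1*, and *Mcl1*. They were listed by name and matched by symbol to the gene IDs of the expression tables, and all 10 were found among 55487 genes and were among the 17875 genes with enough counts to be tested. RNA was sequenced from small intestinal crypts, the pits of the epithelium that hold stem cells, dividing progenitors, and Paneth cells, that were isolated with EDTA from the proximal part of the gut of 19 C57BL/6 mice of both sexes, with a library for each mouse. Nt+/+ mice, wild type for *Nts* (n = 5), and mice lacking neurotensin, a gut peptide encoded by *Nts* (Nt-/-, n = 4), were fed standard chow ad libitum. Nt+/+ mice (n = 5) and Nt-/- mice (n = 5) were fasted for 48 hours with water only. The study describes its Nt+/+ and Nt-/- mice as Lgr5-EGFP mice, with a reporter allele at the stem cell gene *Lgr5*. The genotype labels of the samples name only the Nt genotype. Mice in the fasting studies were between 10 and 16 weeks old, the fed controls were littermates, and the deletion of *Nts* is carried by every cell of an Nt-/- mouse, not by the crypt epithelium alone. The comparisons ask whether a fast of 48 hours changed the 10 genes in each genotype, and whether the loss of *Nts* changed them or their response to fasting.

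p53 is a transcription factor that is held at a low level by Mdm2, the ubiquitin ligase that marks it for destruction, and that accumulates when DNA is damaged or the cell is otherwise stressed. It then induces genes that stop the cell cycle, repair DNA, restrain growth signals, or start apoptosis, and *Mdm2* is itself one of its targets, which closes a feedback loop. In the small intestine p53 and its target Puma, encoded by *Bbc3*, are known for the death of crypt cells after irradiation. Much of the control of p53 acts on the protein, so the mRNA level of *Trp53* is not a measure of p53 activity. Bax and Puma favor the release of cytochrome c from mitochondria, and the proteins of *Bcl2l1* (Bcl-xL) and *Mcl1* oppose it.

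The targeted gene was read first. *Nts* lay between 6.75 and 8.59 CPM (counts scaled to the size of each library) in fed Nt+/+ mice and between 4.98 and 5.71 CPM in fasted Nt+/+ mice, and no Nt-/- mouse exceeded 0.793 CPM. The labels of fasted Nt+/+ replicate 5 disagree, with Nt+/+ in its title and Nt-/- in its genotype label. Its *Nts* level was 5.43 CPM, within the range of the Nt+/+ mice, and it was grouped by its title. The counts assigned to genes totaled between 9059457 and 35068711 per mouse. Crypt markers were present in every group, with *Olfm4* of stem cells between 715 and 2413 CPM and the cycling marker *Mki67* between 467 and 865 CPM. By contrast, 7 markers of stroma, muscle, and endothelium summed to between 2.40 and 9.91 CPM. Lymphocyte markers (6 genes) summed to between 64.8 and 196.75 CPM, so the crypts were not free of other cells.

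Positions are given on GRCm38. *Trp53* spans chr11:69580359-69591873 on the plus strand, *Mdm2* chr10:117688875-117710758 on the minus strand, *Ccng1* chr11:40748552-40755311 on the minus strand, and *Bcl2l1*, the longest of them, chr2:152780668-152831728 on the minus strand. RefSeq promoter windows (GRCm38.p6, from 250 bases before to 50 bases after a start site) were at hand for 9 of the 10 genes, in 13 windows, and not for *Trp53inp1*. A p53 response element consists of a pair of decamers. A decamer that matched the p53 consensus on either strand was found in 4 of the 13 windows, compared with 8.36% of all 32851 windows. These 4 were 1 window each of *Trp53*, *Mdm2*, *Bax*, and *Ccng1*. A pair of such decamers within 13 bases was found in none of the 13 windows and in 0.0731% of all windows. The 4 stretches are shown because they are the part of these promoters that matches the factor the group is named for, with the decamer in capitals. Numbers before the sequence give the first base of the decamer, counted from the start site with negative values upstream, and the region shown.

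*Trp53*, −75, chr11:69580259-69580318, plus strand: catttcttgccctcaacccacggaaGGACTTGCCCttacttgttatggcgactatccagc
*Mdm2*, −186, chr10:117710910-117710969, minus strand: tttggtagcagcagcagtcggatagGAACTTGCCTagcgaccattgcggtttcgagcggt
*Ccng1*, −185, chr11:40755437-40755496, minus strand: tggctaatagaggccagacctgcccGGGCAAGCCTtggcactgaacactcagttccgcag
*Bax*, −201, chr7:45467065-45467124, minus strand: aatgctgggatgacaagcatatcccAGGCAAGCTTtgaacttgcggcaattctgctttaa

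The 3 windows of *Bcl2l1* held no match to the decamer. Of the other motifs searched on both strands, TGTTTAC (bound by FOXO factors) was found in 2 of the 13 windows (*Mdm2* and *Bbc3*) and in 3.65% of all windows. The E-box CACGTG was found in 3 of the 13 windows (*Trp53*, *Bbc3*, and *Bax*) and in 7.15% of all windows. The motifs TGACGTCA, TTTCCCGC, TTTGGCGC, and TGATGCAA were found in none of the 9 genes and in 1.79%, 1.07%, 0.514%, and 0.895% of all windows. A match is a run of letters and not evidence of binding, and p53 elements can also lie in introns or further upstream, which these windows do not cover.

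Per unit of transcript length, the levels in fed Nt+/+ crypts ran from *Mcl1* to *Phlda3*. *Mcl1* and *Trp53* were highest, at 52.3 ± 7.1 and 52.3 ± 4.25 TPM (a level scaled to transcript length and library size; SD, n = 5), and their ranges overlapped. *Ccng1* (23.5 TPM), *Bax* (23.3 TPM), *Mdm2* (20.98 TPM), and *Bcl2l1* (18 TPM) followed, and neighbors among these 4 overlapped. *Trp53inp1* (5.74 TPM), *Sesn2* (3.09 TPM), *Bbc3* (1.65 TPM), and *Phlda3* (0.338 TPM) were each separated from the next in rank. The order changed with fasting in both genotypes: *Bcl2l1* moved from the sixth to the third rank and *Ccng1* from the third to the sixth. In fasted Nt-/- crypts *Bcl2l1* reached 28.2 ± 4.55 TPM and *Ccng1* 18.9 ± 2.34 TPM (SD, n = 5), although neighbors in the order from *Bcl2l1* through *Mdm2* and *Bax* to *Ccng1* overlapped in range. *Mcl1* was highest in all 4 groups, and *Phlda3* was lowest.

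**Figure D1:**
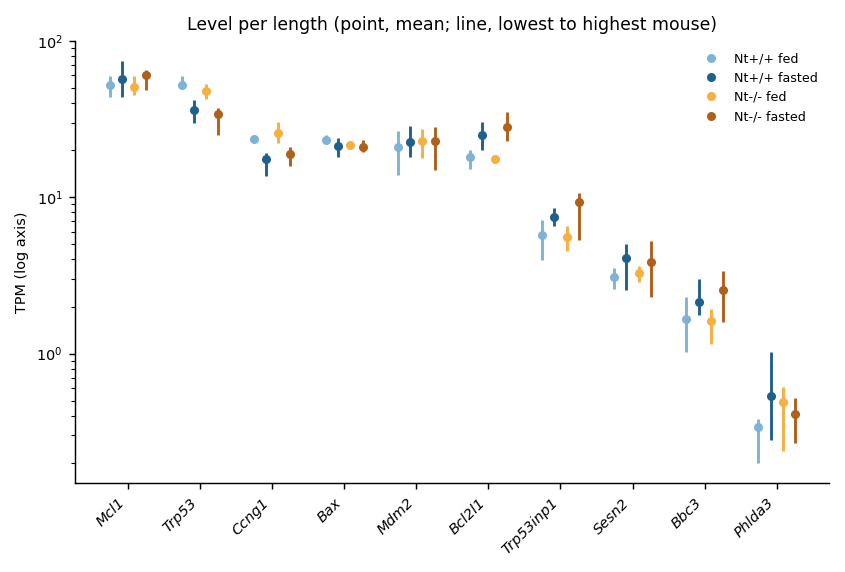
Level per length of the 10 genes in TPM on a log axis, in the order of fed Nt+/+ crypts; points are group means and lines run from the lowest to the highest mouse. The 4 groups of a gene lie close to each other compared with the distance from *Mcl1* (52.3 TPM) to *Phlda3* (0.338 TPM). The fasted means lie below the fed means for *Trp53* and *Ccng1* and above them for *Bcl2l1*. In TPM the lines of Nt+/+ mice overlap for *Bcl2l1* (fed up to 20.16, fasted from 19.98). Those for *Trp53* do not (fed from 50.08, fasted up to 42.11), and in CPM both are the other way round.

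Fasting lowered *Trp53* and *Ccng1* and raised *Bcl2l1* in crypts of both genotypes. Each gene was tested between fasted and fed mice with edgeR's quasi-likelihood test on the counts of all 17875 genes, and called at a Benjamini-Hochberg adjusted p under 0.05. In Nt+/+ mice 3 of the 10 genes were called, 1 higher and 2 lower, compared with 21.6% of all genes tested (11.2% higher and 10.4% lower), and 6 of the 10 had an unadjusted p under 0.05, compared with 34.1%. In Nt-/- mice 5 of the 10 were called, 3 higher and 2 lower, compared with 25.2% of all genes (12.5% higher and 12.6% lower), and 6 of the 10 had an unadjusted p under 0.05, compared with 36.5%. Of the 10, 3 were called in both genotypes, compared with 16.4% of all genes. The median log2 fold change of the 10 was 0.25 in Nt+/+ and 0.13 in Nt-/- mice, and that of all genes was −0.01 and −0.02. On the scale of log2(TPM + 1), tested with limma, the calls over all genes in Nt+/+ mice split into 920 higher and 1496 lower, compared with 2010 and 1852 here, and *Trp53*, *Ccng1*, and *Bcl2l1* kept their call and direction. Each p value sets the fold change against the spread between mice, estimated over all groups, and treats the mice as independent.

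**Figure D2:**
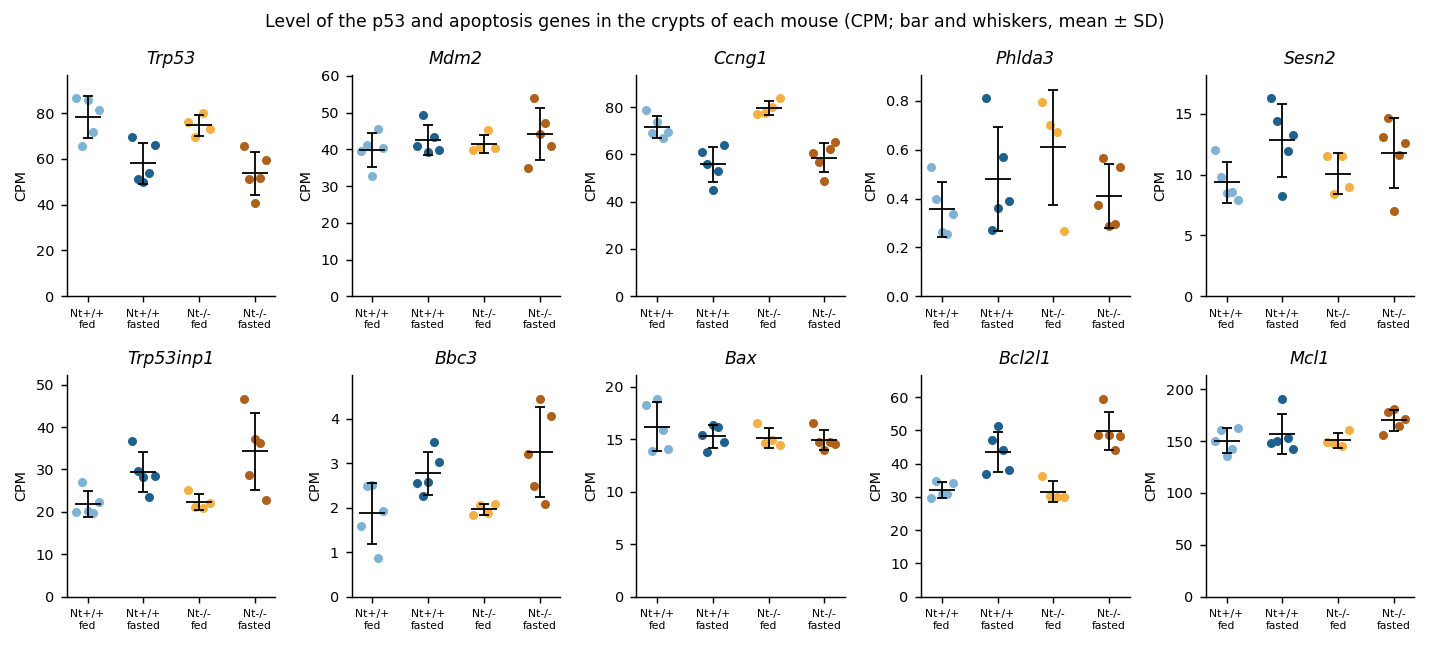
Level of each gene in each mouse in CPM, with the mean and SD of the 4 groups (fed, n = 5 Nt+/+ and n = 4 Nt-/-; fasted, n = 5 each). All fasted mice lie below the fed mice of their genotype for *Ccng1* and above them for *Bcl2l1*, *Trp53* is lower without overlap in Nt-/- mice and with overlap in Nt+/+ mice, and *Mdm2*, *Bax*, and *Mcl1* overlap between diets in both genotypes.

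*Trp53*, the gene of p53 itself, was measured at 86.5, 65.7, 85.9, 71.6, and 81.3 CPM in fed Nt+/+ mice (in order of replicate number, as throughout) and at 69.4, 51.4, 49.9, 53.7, and 65.9 CPM in fasted Nt+/+ mice. The fasted group was lower, but its replicates 1 and 5 lay above the lowest fed mouse. In Nt-/- mice *Trp53* was at 76.1, 69.5, 80.1, and 73.0 CPM fed and at 65.5, 51.3, 40.7, 51.6, and 59.6 CPM fasted, without overlap. The log2 fold change was −0.43 in Nt+/+ (SE, 0.12; adjusted p = 0.0125) and −0.47 in Nt-/- mice (SE, 0.12; adjusted p = 0.00836). The deposited tables carry set numbers in their names, and the fasted mouse was lower than the fed mouse of its set in 5 of 5 sets of Nt+/+ and 4 of 4 sets of Nt-/- mice. In Nt-/- mice this follows from the lack of overlap. All sets also went 1 way for *Ccng1* (lower) and for *Bcl2l1* and *Trp53inp1* (higher). For *Ccng1* and *Bcl2l1* this follows from the lack of overlap in both genotypes. *Bbc3*, *Sesn2*, and *Mcl1* were higher in 4 of 4 sets of Nt-/- mice, and in 4, 4, and 2 of 5 sets of Nt+/+ mice. The tally was not made over all genes. *Trp53-ps*, a processed pseudogene that could share reads with *Trp53*, had between 4 and 47 counts per mouse, compared with between 452 and 2581 for *Trp53*.

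*Mdm2*, which both inhibits p53 and is induced by it, did not pass the test. It ranged from 32.7 to 45.4 CPM in fed and from 39.3 to 49.4 CPM in fasted Nt+/+ mice, and from 39.8 to 45.2 CPM in fed and from 34.9 to 53.9 CPM in fasted Nt-/- mice. The log2 fold change on fasting was 0.09 in Nt+/+ mice (95% confidence interval, −0.12 to 0.31) and 0.09 in Nt-/- mice (−0.14 to 0.31).

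*Ccng1* encodes cyclin G1, a p53 target that brings a phosphatase to Mdm2. It was at 78.8, 68.9, 73.6, 67.0, and 69.6 CPM in fed and at 60.9, 55.8, 45.1, 53.1, and 64.0 CPM in fasted Nt+/+ mice. In Nt-/- mice it was at 77.0, 77.8, 80.2, and 83.8 CPM fed and at 60.5, 56.7, 48.9, 62.1, and 65.2 CPM fasted. Every fasted mouse was below every fed mouse of its genotype. *Ccng1* was 1 of 2 members without overlap in Nt+/+ mice and 1 of 3 in Nt-/- mice, compared with 14.6% of all genes in Nt+/+ (7.63% higher and 6.97% lower) and 21.3% in Nt-/- mice (10.5% higher and 10.8% lower). Along with *Bcl2l1* it was free of overlap in both genotypes, which held for 9.6% of all genes with the same direction. The log2 fold change was −0.36 in Nt+/+ (SE, 0.09; adjusted p = 0.00579) and −0.44 in Nt-/- mice (SE, 0.09; adjusted p = 0.00163).

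Of the other p53 targets among the 10, *Trp53inp1* was called in Nt-/- mice, and *Sesn2* and *Phlda3* were called in neither genotype. *Trp53inp1* encodes a stress-induced protein that promotes p53 activity and autophagy. It was at 19.9, 27.0, 20.3, 19.7, and 22.3 CPM in fed and at 36.7, 29.5, 28.1, 23.6, and 28.6 CPM in fasted Nt+/+ mice, where only fed replicate 2 overlapped the fasted group. In Nt-/- mice it was at 25.2, 21.1, 20.9, and 22.1 CPM fed and at 46.7, 28.7, 37.1, 36.2, and 22.7 CPM fasted, where fasted replicate 5 lay inside the fed range. *Trp53inp1* rose in Nt-/- mice (log2 fold change, 0.62; SE, 0.16; adjusted p = 0.00849), and in Nt+/+ mice it had a log2 fold change of 0.42 (SE, 0.15; adjusted p = 0.0544), just outside the threshold. It was called in Nt+/+ mice under 10 of 23 alternatives, with adjusted p values from 0.0269 to 0.198.

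*Sesn2* encodes a sestrin, a leucine sensor that restrains mTORC1. It was at 12.04, 9.83, 8.46, 8.58, and 7.88 CPM in fed and at 16.3, 14.4, 8.28, 11.9, and 13.3 CPM in fasted Nt+/+ mice, and between 8.39 and 11.5 CPM in fed and between 6.997 and 14.6 CPM in fasted Nt-/- mice. The groups overlapped in both genotypes, through fasted replicates 3 and 4 in Nt+/+ and fasted replicate 3 in Nt-/- mice, and replicate 3 was the lowest fasted mouse in each. *Sesn2* did not pass the test in Nt+/+ (log2 fold change, 0.45; 95% confidence interval, 0.06 to 0.85; adjusted p = 0.0959) or in Nt-/- mice (0.22; −0.21 to 0.64; adjusted p = 0.48). Without fasted replicate 3 its adjusted p in Nt+/+ mice was 0.0297, the only call in 10 fits with a mouse left out. It was called in Nt+/+ mice under 4 of 23 alternatives, with adjusted p values from 0.0182 to 0.246. *Gm12981*, a gene that overlaps *Sesn2* and is annotated on the same strand, had between 1 and 18 counts per mouse, compared with between 118 and 390 for *Sesn2*.

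*Phlda3*, a p53-induced inhibitor of Akt, had between 3 and 27 counts per mouse. It was between 0.254 and 0.528 CPM in fed and between 0.273 and 0.811 CPM in fasted Nt+/+ mice, and between 0.266 and 0.796 CPM in fed and between 0.289 and 0.567 CPM in fasted Nt-/- mice. Its log2 fold change on fasting was 0.41 in Nt+/+ (95% confidence interval, −0.34 to 1.16) and −0.60 in Nt-/- mice (−1.37 to 0.17). *Phlda3* was called in neither genotype, and its intervals leave a rise or a fall possible.

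Of the proapoptotic genes, *Bbc3* was higher on fasting and *Bax* was not called. *Bbc3*, the gene of Puma, was a low transcript with between 17 and 77 counts per mouse. It was at 1.58, 2.49, 2.51, 0.863, and 1.93 CPM in fed and at 2.55, 2.25, 2.57, 3.48, and 3.02 CPM in fasted Nt+/+ mice, and at 1.83, 2.06, 1.88, and 2.08 CPM in fed and at 3.20, 2.50, 4.45, 2.07, and 4.07 CPM in fasted Nt-/- mice. A single fasted mouse overlapped the fed group in each genotype, replicate 2 in Nt+/+ and replicate 4 in Nt-/- mice. *Bbc3* rose in Nt-/- mice (log2 fold change, 0.76; SE, 0.26; adjusted p = 0.041), and in Nt+/+ mice it had a log2 fold change of 0.57 (SE, 0.25; adjusted p = 0.11). The call in Nt-/- mice was close to the threshold and was lost, with adjusted p values of 0.0933, 0.0725, 0.092, and 0.0645, without fed Nt-/- replicate 1, 2, 3, or 4, and of 0.0521, 0.112, and 0.0935 without fasted Nt-/- replicate 1, 3, or 5. It was also lost without a filter on low counts (0.0786), on the TPM scale (0.102), with sex as a covariate (0.0948), and with a replicate block (0.0608 by the number in the table names, 0.0616 by the title).

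*Bax*, which forms the pore in the outer mitochondrial membrane, overlapped between diets in both genotypes. It ranged from 13.9 to 18.9 CPM in fed and from 13.8 to 16.4 CPM in fasted Nt+/+ mice, and from 14.4 to 16.5 CPM in fed and from 13.99 to 16.6 CPM in fasted Nt-/- mice. Its log2 fold change was −0.08 in Nt+/+ (95% confidence interval, −0.28 to 0.12) and −0.02 in Nt-/- mice (−0.23 to 0.19). *Gm45808*, a gene that overlaps *Bax* on the same strand, had at most 5 counts in any mouse.

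Of the antiapoptotic genes, *Bcl2l1* rose and *Mcl1* was not called. *Bcl2l1* was at 29.5, 34.7, 30.9, 30.9, and 34.3 CPM in fed and at 36.8, 47.0, 51.2, 44.1, and 38.1 CPM in fasted Nt+/+ mice. In Nt-/- mice it was at 36.3, 30.3, 29.8, and 29.9 CPM fed and at 48.6, 59.6, 48.5, 44.2, and 48.3 CPM fasted. In CPM, every fasted mouse was above every fed mouse of its genotype, and also above every fed mouse of the other genotype. The log2 fold change was 0.44 in Nt+/+ (SE, 0.10; adjusted p = 0.00287) and 0.66 in Nt-/- mice (SE, 0.10; adjusted p = 0.000134). The gene gives rise to the antiapoptotic Bcl-xL and to a shorter proapoptotic isoform, which counts per gene do not tell apart.

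*Mcl1*, whose short-lived protein is needed for survival of the intestinal epithelium, ranged from 136 to 163 CPM in fed and from 142 to 191 CPM in fasted Nt+/+ mice. In Nt-/- mice it ranged from 145 to 161 CPM fed and from 156 to 181 CPM fasted. The groups overlapped in both genotypes. The log2 fold change was 0.06 in Nt+/+ (95% confidence interval, −0.10 to 0.22; adjusted p = 0.631) and 0.17 in Nt-/- mice (0.00 to 0.35; adjusted p = 0.134).

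**Figure D3:**
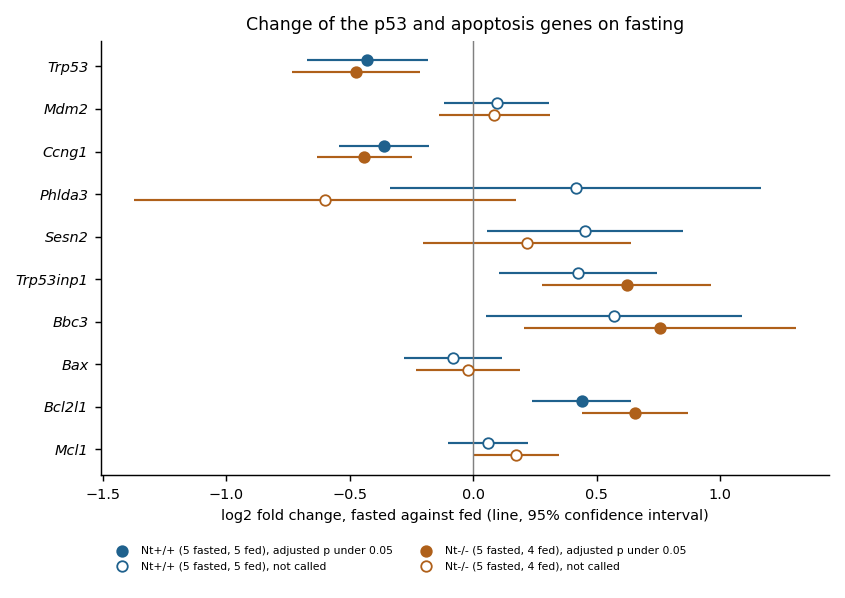
Log2 fold change between fasted and fed mice of each gene in Nt+/+ and Nt-/- mice with its 95% confidence interval; filled points have an adjusted p under 0.05. The intervals of the 2 genotypes overlap for all 10 genes, and the points of *Trp53* lie at −0.43 and −0.47 and those of *Bbc3* at 0.57 and 0.76. The intervals of *Mdm2*, *Bax*, and *Phlda3* include 0 in both genotypes, and so do those of *Sesn2* in Nt-/- and *Mcl1* in Nt+/+ mice.

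Averaged over both genotypes, the same 5 members were called as in Nt-/- mice, compared with 39.4% of all genes (19.2% higher and 20.2% lower), and 6 had an unadjusted p under 0.05, compared with 47.4%. The log2 fold changes were −0.45 for *Trp53* (SE, 0.09; adjusted p = 0.000314), −0.40 for *Ccng1* (SE, 0.06; adjusted p = 5.33e-05), 0.55 for *Bcl2l1* (SE, 0.07; adjusted p = 5.38e-06), 0.52 for *Trp53inp1* (SE, 0.11; adjusted p = 0.000963), and 0.66 for *Bbc3* (SE, 0.18; adjusted p = 0.00634). *Sesn2* had a log2 fold change of 0.33 (SE, 0.14; adjusted p = 0.0618). All 5 calls held under all 31 alternatives run for the average, in which the highest adjusted p was 0.035, for *Bbc3*. Mice that share a number deviated together on average. With the replicate block 5 members were called in Nt+/+ mice, *Trp53inp1* (adjusted p = 0.0383 by the number in the table names and 0.0397 by the title) and *Sesn2* (adjusted p = 0.0182 and 0.0492) in addition to *Trp53*, *Ccng1*, and *Bcl2l1*. With sex as a covariate, in a fit that drops fasted Nt-/- replicate 5, whose sex is not given, the same 5 were called. With the mouse of disagreeing labels left out or grouped as Nt-/-, the count stayed at 3 in Nt+/+ and at 5 in Nt-/- mice.

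Markers of cell types moved with the diet. All 7 markers of villus enterocytes were higher in fasted mice, 6 of 7 called in Nt+/+ and 7 of 7 in Nt-/- mice, and their summed level was between 2919 and 5750 CPM in fed and between 5922 and 12109 CPM in fasted Nt+/+ mice, and between 4349 and 6672 CPM in fed and between 10750 and 14732 CPM in fasted Nt-/- mice. Of 5 markers of cycling cells 3 fell in Nt+/+ and 4 in Nt-/- mice, and their sum was between 1451 and 1653 CPM in fed and between 938 and 1265 CPM in fasted Nt+/+ mice, and between 1389 and 1519 CPM in fed and between 820 and 1072 CPM in fasted Nt-/- mice. No marker of either list was at 0 in a whole group. Their part in the changes of *Trp53*, *Ccng1*, *Trp53inp1*, *Bbc3*, and *Bcl2l1* was not tested, and in bulk RNA a smaller share of cells of a type cannot be told apart from less RNA per cell. Stem cell markers went in both directions. Of 4 in Nt+/+ mice, 1 was called lower and 0 higher, and 2 lay above and 2 below no change (log2 fold changes, −0.63 to 0.63). Of 4 in Nt-/- mice, 2 were called lower and 0 higher, and 1 lay above and 3 below no change (−0.92 to 0.12). Among the other lists were markers of Paneth cells (1 of 4 called lower in Nt-/- mice, none in Nt+/+), goblet cells (1 and 2 of 4 lower), lymphocytes (none, and 1 of 6 higher), myeloid cells (1 of 3 tested lower in each), and enteroendocrine and tuft cells (1 of 4 higher in each), and none of 5 stromal, muscle, and endothelial or 2 red blood cell markers was called.

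The loss of *Nts* did not change any of the 10 genes at the threshold used, fed or fasted. Across all genes, 1 gene (0.00559%) was called in fed mice and 1 (0.00559%) in fasted mice, in both cases *Nts*. At an unadjusted p under 0.05, 1 member (*Phlda3*) and 299 genes in all (1.67%) differed in fed mice, and 0 members and 1634 genes in all (9.14%) differed in fasted mice. DESeq2's Wald test called 98 genes and edgeR's likelihood ratio test 41 genes between the genotypes in fasted mice, and 0 of these were members. In no comparison of genotypes were the groups of a member free of overlap, compared with 0.694% of all genes in fed (0.358% higher and 0.336% lower) and 1.56% in fasted mice (0.94% higher and 0.615% lower).

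In fed mice the log2 fold changes between Nt-/- and Nt+/+ mice lay between −0.10 (*Bax*) and 0.15 (*Ccng1*) for 9 members, and that of *Phlda3* was 0.77 (95% confidence interval, 0.02 to 1.52; adjusted p = 1). *Phlda3* was at 0.528, 0.400, 0.264, 0.254, and 0.338 CPM in fed Nt+/+ and at 0.796, 0.704, 0.674, and 0.266 CPM in fed Nt-/- mice, so that 3 Nt-/- mice were above all Nt+/+ mice and 1 was not. For *Trp53* the interval ran from −0.32 to 0.19, for *Mdm2* from −0.17 to 0.28, for *Bax* from −0.31 to 0.11, and for *Mcl1* from −0.17 to 0.17. In fasted mice *Bcl2l1* was measured at 43.5 ± 6.02 CPM without the deletion and at 49.9 ± 5.75 CPM with it (SD, n = 5 each; log2 fold change, 0.20; 95% confidence interval, −0.004 to 0.40; adjusted p = 0.556). *Bbc3* was 2.78 ± 0.482 CPM in fasted Nt+/+ and 3.26 ± 1.01 CPM in fasted Nt-/- mice (SD, n = 5 each; log2 fold change, 0.25; −0.26 to 0.76). The remaining members had log2 fold changes between −0.24 (*Phlda3*) and 0.23 (*Trp53inp1*) in fasted mice. The absence of a call does not show that the genotypes were equal, and the intervals give the differences that the data leave possible.

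The response to fasting was compared between the genotypes by the interaction of diet and genotype. No member was called, and 0 of 17875 genes were called in all (0%; 485 genes, 2.71%, at an unadjusted p under 0.05, of which 0 were members). The calls of *Bbc3* and *Trp53inp1* in Nt-/- mice and not in Nt+/+ mice therefore do not show that the genotypes differed. The difference of the log2 fold changes, Nt-/- minus Nt+/+, was 0.19 for *Bbc3* (95% confidence interval, −0.57 to 0.94), 0.20 for *Trp53inp1* (−0.27 to 0.66), and 0.22 for *Bcl2l1* (−0.08 to 0.51). For the genes that fell it was −0.04 for *Trp53* (−0.40 to 0.31) and −0.08 for *Ccng1* (−0.35 to 0.18). *Phlda3* had the widest interval of the 10, with a difference of −1.01 (−2.09 to 0.06).

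Around p53 itself, 13 of 16 listed regulators could be tested. In Nt+/+ mice 6 were called, 1 higher and 5 lower, and in Nt-/- mice 5, 1 higher and 4 lower, compared with 21.6% and 25.2% of all genes. Their median log2 fold change was −0.18 and −0.13, and that of all genes −0.01 and −0.02. *Atm* and *Chek2*, kinases that signal DNA damage to p53, fell in both genotypes. *Atm* fell from 79.7 ± 4.68 to 49.7 ± 7.95 CPM in Nt+/+ (SD, n = 5 each; log2 fold change, −0.68; SE, 0.09; adjusted p = 1.77e-05) and from 78.1 ± 5.28 (n = 4) to 53.5 ± 2.72 CPM (n = 5) in Nt-/- mice (−0.54; SE, 0.09; adjusted p = 0.000247). *Chek2* had log2 fold changes of −0.67 and −0.66 (adjusted p = 5.25e-05 and 0.000102). In both genes the fasted and fed mice did not overlap. *Cop1*, a ubiquitin ligase for p53, and *Trp53bp1*, which encodes a DNA damage response protein that binds p53, also fell in both genotypes, with log2 fold changes between −0.24 and −0.34. For *Cop1* fed and fasted mice overlapped in Nt-/- mice, and for *Trp53bp1* in Nt+/+ mice. *Cul9*, which encodes a cullin that binds p53 in the cytoplasm, rose from 4.97 ± 0.602 to 12.6 ± 1.19 CPM in Nt+/+ (log2 fold change, 1.34; SE, 0.14; adjusted p = 2.95e-06) and from 5.91 ± 0.857 to 12.7 ± 2.72 CPM in Nt-/- mice (1.11; SE, 0.15; adjusted p = 3.82e-05).

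Of 35 further p53 targets listed, 33 could be tested, with calls in both directions. In Nt+/+ mice 3 were called, 1 higher and 2 lower, and in Nt-/- mice 8, 3 higher and 5 lower, compared with 21.6% and 25.2% of all genes, so that the share called was below that of all genes in Nt+/+ and close to it in Nt-/- mice. Their median log2 fold change was 0.09 and 0.06. *Rps27l*, a ribosomal protein gene induced by p53, fell in both genotypes (log2 fold change, −0.33 and −0.29; adjusted p = 0.0168 and 0.0445). *Sesn1*, the sestrin related to *Sesn2*, fell in Nt+/+ mice from 69.1 ± 5.25 to 49.0 ± 4.59 CPM (log2 fold change, −0.49; SE, 0.10; adjusted p = 0.0017), without overlap, and *Ephx1*, an epoxide hydrolase, rose there (0.53; adjusted p = 0.00988). *Cdkn1a*, the gene of the cell-cycle inhibitor p21, rose in Nt-/- mice from 66.5 ± 9.29 (SD, n = 4) to 93.2 ± 6.95 CPM (SD, n = 5; log2 fold change, 0.49; SE, 0.17; adjusted p = 0.0381). In Nt+/+ mice it was 58.2 ± 4.32 CPM fed and 77.8 ± 26.9 CPM fasted (SD, n = 5 each) and was not called. *Pmaip1*, which encodes the BH3-only protein Noxa, rose in Nt-/- mice (1.13; SE, 0.36; adjusted p = 0.0257), and *Gadd45a*, a growth arrest gene, and *Gpx1*, a glutathione peroxidase, fell there (−0.45 and −0.32; adjusted p = 0.0342 and 0.0351). None of these genes was called for the difference between genotypes. Among the calls on fasting, fed and fasted mice overlapped for *Rps27l* and *Ephx1* in Nt+/+ mice and for *Pmaip1* in Nt-/- mice.

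In the rest of the BCL2 family 15 of 19 listed genes could be tested, and 4 were called in Nt+/+ (3 higher and 1 lower) and 8 in Nt-/- mice (5 higher and 3 lower), compared with 21.6% and 25.2% of all genes. Their median log2 fold change was 0.18 and 0.26. *Pmaip1* is on this list and on that of the p53 targets, so its call in Nt-/- mice counts in both. *Bak1*, whose protein forms the mitochondrial pore as Bax does, fell from 145.5 ± 14 to 99.8 ± 11.1 CPM in Nt+/+ (SD, n = 5 each; log2 fold change, −0.54; SE, 0.11; adjusted p = 0.00178) and from 137.7 ± 22.4 (n = 4) to 91.1 ± 12.9 CPM (n = 5) in Nt-/- mice (−0.60; SE, 0.12; adjusted p = 0.00105), without overlap. *Bok*, a further pore-forming relative, rose in both (log2 fold change, 0.95 and 1.17; adjusted p = 0.000839 and 0.000208). *Bnip3*, which marks mitochondria for autophagy, rose in both (1.17 and 1.36; adjusted p = 0.000108 and 3.45e-05), and so did *Bcl2l11*, the gene of the BH3-only protein Bim (0.39 and 0.58; adjusted p = 0.0367 and 0.0044). *Bmf*, another BH3-only gene, rose in Nt-/- mice from 6.26 ± 1.13 (SD, n = 4) to 13.9 ± 3.99 CPM (SD, n = 5; log2 fold change, 1.15; SE, 0.21; adjusted p = 0.000438) and was 7.36 ± 1.78 CPM fed and 8.96 ± 0.777 CPM fasted in Nt+/+ mice (SD, n = 5 each), where it was not called. The difference of its log2 fold changes between the genotypes was 0.86 (95% confidence interval, 0.28 to 1.44; unadjusted p = 0.00567 in edgeR's test) and did not pass adjustment (adjusted p = 0.999783).

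Downstream of the mitochondrion, all 21 listed caspase and apoptosome genes were tested, and 6 were called in Nt+/+ (1 higher and 5 lower) and 6 in Nt-/- mice (2 higher and 4 lower), shares close to the 21.6% and 25.2% of all genes. Their median log2 fold change was −0.12 and −0.13. *Cycs*, which encodes cytochrome c, a carrier of the respiratory chain that also assembles the apoptosome, fell from 57.1 ± 5.70 to 33.5 ± 4.83 CPM in Nt+/+ (SD, n = 5 each; log2 fold change, −0.77; SE, 0.13; adjusted p = 0.000291) and from 56.9 ± 11 (n = 4) to 35.2 ± 5.88 CPM (n = 5) in Nt-/- mice (−0.70; SE, 0.14; adjusted p = 0.000912). The fed and fasted mice of a genotype did not overlap. *Casp9*, the initiator caspase of the apoptosome, rose (0.31 in both; adjusted p = 0.00623 and 0.00704), and *Casp2* fell (−0.28 and −0.32; adjusted p = 0.0109 and 0.00605). Fed and fasted mice overlapped for *Casp9* in Nt+/+ and for *Casp2* in Nt-/- mice. The villus enterocyte and cycling cell markers given above moved with these comparisons as well.

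**Figure D4:**
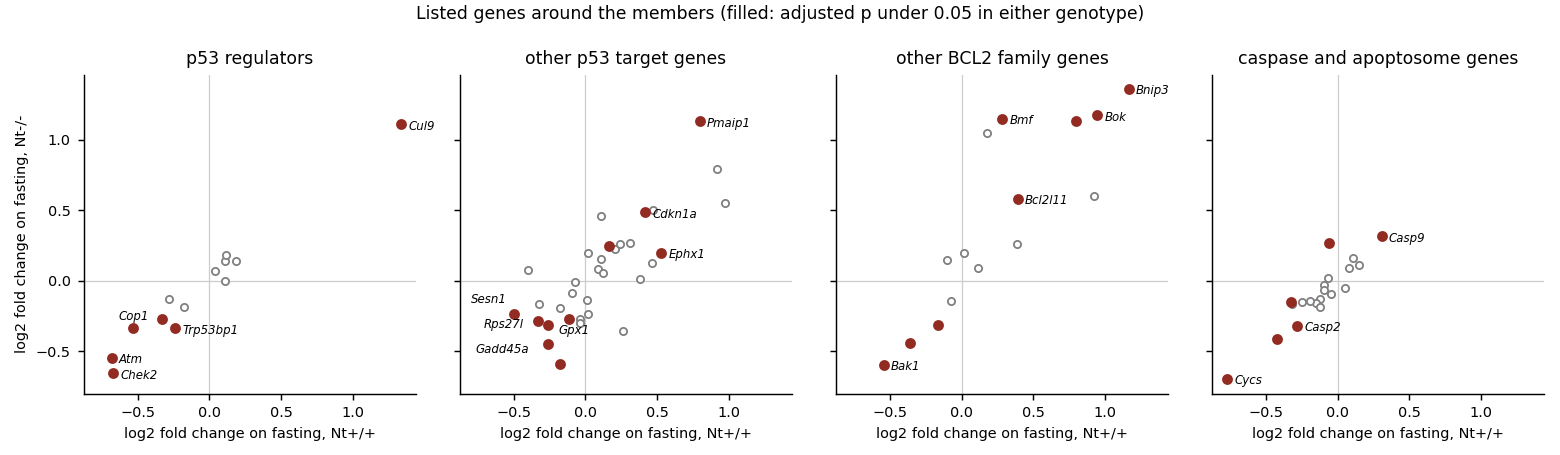
Log2 fold change on fasting in Nt+/+ (x axis) and Nt-/- mice (y axis) of the tested genes of the lists around the 10 genes, with 1 caspase list gene not drawn; filled points have an adjusted p under 0.05 in at least 1 genotype, and labels mark the genes named in the text. *Cul9* (1.34 and 1.11), *Bnip3* (1.17 and 1.36), and *Bok* (0.95 and 1.17) lie at the upper right, and *Atm*, *Chek2*, *Bak1*, and *Cycs* at the lower left.

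Across the 19 mice, the genes whose log2 CPM ran most closely with a called member were found among all genes tested by Pearson's r. For *Trp53* these were *Fam136a* (r = 0.973), *Mgme1* (0.968), and *Kpna2* (0.961), and for *Ccng1* they were *Pank1* (0.944), *Eif2d* (0.931), and *Pigu* (0.929). For *Bcl2l1* they were *Stk24* (0.956), *Il22ra1* (0.955), and *Tnfrsf1a* (0.948). For *Trp53inp1* they were *Foxn3* (0.873), *Cd83* (0.872), and *Glul* (0.87), and for *Bbc3*, the lowest of the 5 in counts, *Cyp2d10* (0.886), *Gm12993* (0.841), and *Mrvi1* (0.814). These values describe the 19 mice, which share the difference between diets, and carry no test.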

How the data were processed

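The authors made single-end libraries depleted of ribosomal RNA, cleaned the reads with Trimmomatic (0.39), and mapped them to Ensembl transcripts of GRCm38 (release 100) with RSEM, whose version is not given in the sources used here. They deposited for each mouse and gene the expected count (no normalization, with shared reads split between genes by a model), the TPM, and the effective length in bases. Expected counts were rounded here. TPM was used for levels between genes. Symbols and coordinates came from GENCODE M21, which matched 55141 of 55487 gene IDs. CPM used TMM library sizes. Genes passing filterByExpr (17875) were fitted with 1 coefficient per group in edgeR 4.0.16 (R 4.3.3; 15 residual degrees of freedom; biological coefficient of variation, 18.9%), with the quasi-likelihood test and Benjamini-Hochberg adjustment over all genes, and the script was tested on simulated data. SEs came from the fold change and the F statistic. Columns of other samples numbered 0. Depth ranged from 9059457 to 35068711 counts per mouse.

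Numbers in the sample titles and in the names of the deposited tables link mice of different groups, and their meaning is not stated. Deviations from group means correlated in every same-numbered pair of the 4 comparisons by the number in the table names (lowest r, 0.117), and by the title in every pair of fasted against fed Nt+/+ and of the fasted genotypes, so that fits with a replicate block are given as alternatives. Others were no filter, a minimum of 10 counts per mouse, upper quartile or DESeq2 size factors, DESeq2 (1.42.0), edgeR's likelihood ratio test, limma (3.58.1) on log2(TPM + 1), sex, the mouse with disagreeing labels regrouped or left out, only the groups compared, and each mouse left out.

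The members and the other gene lists were chosen with earlier results of these data known. Named genes were all members, up to 4 called genes with the smallest p for each list of p53, BCL2, or caspase genes and each fasting comparison, and the 3 genes most like each called member. *Nts* and markers used as checks were named in addition. The list of p53 targets shares genes with the BCL2 list and with the caspase list, and these count in each. A gene of the caspase list is included in the counts and is not reported by itself here.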

Additional observations from a re-analysis of the deposited data

Results flagged for a closer look

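In 40 sets of values, 1 for each of the 10 genes in each of 4 groups, 4 held a mouse whose gap to the nearest other mouse was large compared with the range of its group by Dixon's criterion. Chance alone marks about 1 in 20 such sets. All 4 were the highest mouse of their group. *Mdm2* was at 45.17 CPM in fed Nt-/- replicate 3, compared with between 39.8 and 40.64 CPM in the other mice. *Bcl2l1* was at 36.28 CPM in fed Nt-/- replicate 1, compared with between 29.81 and 30.25 CPM, and at 59.57 CPM in fasted Nt-/- replicate 2, compared with between 44.19 and 48.65 CPM. *Mcl1* was at 191 CPM in fasted Nt+/+ replicate 3, compared with between 142.3 and 152.8 CPM. Without fed Nt-/- replicate 1 or fasted Nt-/- replicate 2, *Bcl2l1* stayed called in Nt-/- mice.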

How the results depend on the processing

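*Trp53*, *Ccng1*, and *Bcl2l1* kept direction and call on fasting in both genotypes under every alternative run. Of 152 counts of members called under an alternative, 149 lay within 1.5 times the count reported, and the 3 others were all in Nt+/+ mice, where 5 members instead of 3 were called with the replicate block by title number, with the replicate block by the number in the table names, and with sex as covariate. With 1 mouse left out, the count ranged from 3 to 4 in Nt+/+, from 4 to 5 in Nt-/-, from 5 to 6 for the average, and stayed at 0 elsewhere. The blocks moved no other count of members by over 1.5 times and changed no other call than those of *Trp53inp1*, *Sesn2*, and *Bbc3*. The fit of only the groups compared cannot be made for the interaction or the average. The median of all genes fell by 0.0287 on the TPM scale in Nt+/+ mice on fasting, its largest move between scalings.

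Of 1511 single fold changes under an alternative, 44 changed sign, none in a comparison where that gene was called and none with an adjusted p below 0.68. On the TPM scale these were *Mdm2* on fasting in Nt-/- mice (−0.0155), *Bbc3*, *Trp53inp1*, and *Mcl1* between fed genotypes (−0.0068, −0.03, and −0.0457), *Trp53* for the interaction (0.0465), and *Phlda3* for the average (0.0528). Between fed genotypes *Mcl1* was −0.0032 with at least 10 counts and −0.0022 with upper quartile scaling. With the replicate block by title number *Bax* was 0.0028 on fasting in Nt-/- mice and *Trp53inp1* −0.0239 between fed genotypes. For the interaction *Mdm2* was 0.0023 with DESeq2 size factors, 0.0013 with DESeq2, 0.0138 with the block by table name, and 0.0181 with sex, and *Trp53* was 0.0592 and 0.0051 with the mouse of disagreeing labels regrouped or left out. With 1 mouse left out the ranges that crossed 0 were, on fasting, *Mcl1* in Nt+/+ (−0.0201 to 0.0938) and *Bax* in Nt-/- (−0.0632 to 0.0261). Between fed genotypes they were *Bbc3* (−0.1183 to 0.1952), *Bcl2l1* (−0.0968 to 0.0096), *Mcl1* (−0.0334 to 0.0315), *Mdm2* (−0.0035 to 0.11), and *Trp53inp1* (−0.0341 to 0.1207). Between fasted genotypes they were *Mdm2* (−0.0284 to 0.1251), *Phlda3* (−0.3801 to 0.0192), and *Sesn2* (−0.2494 to 0.0185), and for the interaction *Mdm2* (−0.0871 to 0.0664) and *Trp53* (−0.128 to 0.0426). The cause was not tested. *Phlda3* and *Bbc3* rest on few reads, with between 3 and 27 and between 17 and 77 counts per mouse.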

Other observations

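Within groups, some members varied together from mouse to mouse. After the group means were subtracted from log2 CPM, *Trp53* and *Ccng1* correlated with each other (Pearson's r = 0.778 over 19 mice) and each with *Sesn2* (0.628 and 0.718), and *Bcl2l1* correlated with *Mcl1* (0.579). *Ccng1* ran against *Mcl1* (−0.628) and *Bcl2l1* (−0.623). These 6 are the largest in size of 45 pairs, were picked for their size, come from libraries with a shared scaling, and carry no test. The fasted replicate 3 mice of both genotypes lay at the ends of these ranges, except for *Bcl2l1* in the Nt-/- group (48.5 CPM, inside the range). That of the Nt+/+ group had the lowest *Trp53* (49.9 CPM), *Ccng1* (45.1 CPM), and *Sesn2* (8.28 CPM) and the highest *Bcl2l1* (51.2 CPM) and *Mcl1* (191 CPM) of its group, and that of the Nt-/- group had the lowest *Trp53* (40.7 CPM), *Ccng1* (48.9 CPM), and *Sesn2* (6.997 CPM) and the highest *Mcl1* (181 CPM). The 2 mice share the number 3 in the titles and in the names of the deposited tables, and their totals were 19773408 and 17507944 counts. Both are labelled male. So is fasted Nt+/+ replicate 5, which had the highest *Ccng1* (64.0 CPM) and the lowest *Mcl1* (142.3 CPM) of its group. The fed Nt+/+ mouse that carries the number 3 in both places is labelled male as well and did not share the pattern. It was at 85.9 CPM for *Trp53* and 73.6 CPM for *Ccng1*, and had the lowest *Mcl1* of its group (136 CPM).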
